A study of Homo sapiens with 51 samples.

Results

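The 6 genes described here are RNA-binding proteins that set the splicing program of epithelial and mesenchymal cells: ESRP1, ESRP2 and RBM47 on the epithelial side, and QKI, RBFOX2 and MBNL1 on the mesenchymal side. They were taken by symbol from a table of 25421 gene symbols, all 6 had a row, and all 6 passed the filter on low counts in every fit. The table came from PLATE-seq, a pooled RNA sequencing method in which each well carries its own barcode, run on 5 human pancreatic ductal adenocarcinoma cell lines. It held 51 libraries in 17 groups of 3. KP4, PANC1 and PK45H were each left untreated or transduced with lentivirus carrying the open reading frame of OVOL2, a zinc-finger repressor made by epithelial cells, or of mCherry, a fluorescent control protein.

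Transduction was at a multiplicity of infection of 2 with 8 µg/ml polybrene. Each of the mCherry and OVOL2 viruses was used alone and together with M2rtTA, which the labels call an amplifier of tetracycline-inducible systems. All transduced wells, the mCherry controls included, then received 2.5 µg/ml puromycin and 0.6 µg/ml doxycycline, and RNA was collected after 6 days, with 100 ng used per library. HPAFII and PATU8988S were untreated only. The labels name neither the promoter that drives the open reading frame nor the origin of the 3 libraries beyond separate transduced wells, so p-values for the untreated groups measure only the spread between those libraries.

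ESRP1 and ESRP2 are closely related proteins that bind GU-rich sites and switch transcripts such as FGFR2, CD44 and CTNND1 to their epithelial exons. RBM47 also favours epithelial exons and stabilises some messages. QKI binds introns beside exons that mesenchymal cells include, RBFOX2 recognises the hexamer TGCATG and promotes many mesenchymal exons, and MBNL1 is a YGCY-binding regulator best known from muscle differentiation. During epithelial-mesenchymal transition the first set falls and the second set takes over, and ZEB1, a repressor that binds E-boxes, is known to lower the ESRP genes.

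Library totals ran from 1165399 to 7490556 counts, and 15653 to 18817 symbols had a count. HPAFII replicate 2 had the lowest total and stood apart from the other HPAFII libraries. Its ESRP1 level was 9.39 CPM (counts scaled to the size of each library, with TMM factors), against a mean of 26.3 for replicates 1 and 3, and its MBNL1 level was 15.7 against 44.3. The summed level of 10 epithelial markers was 5462 to 15319 CPM in HPAFII and PATU8988S and 661 to 3397 CPM in untreated KP4, PANC1 and PK45H. The 10 mesenchymal markers summed to 1846 to 3316 CPM in untreated KP4 and PANC1. In untreated PK45H they summed to only 232 to 330 CPM, near the 141 to 370 CPM of HPAFII and PATU8988S. Most of this sum was VIM, with 255217 counts over all libraries against 3295 for ZEB1, the next highest. ZEB1 itself did not place PK45H near the epithelial lines: it was at 23.6 CPM there, against 4.65 in HPAFII and 4.49 in PATU8988S. Leukocyte markers summed to at most 32.7 CPM with CD3D at 0 in every library, endothelial markers to at most 15.7 and acinar and islet markers to at most 8.30.

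OVOL2 itself and ZEB1, a gene OVOL proteins are known to repress, were read beside the members. Over the 3 lines OVOL2 counts were -0.09 (SE 0.46) on the log2 scale against mCherry without M2rtTA (adjusted p = 0.926) and 2.15 (SE 0.44) with M2rtTA (adjusted p = 0.00021), in edgeR's quasi-likelihood test with Benjamini-Hochberg adjustment, which gives every adjusted p below. By line with M2rtTA, OVOL2 passed in KP4 (3.08, SE 0.92, adjusted p = 0.0272) and PK45H (1.98, SE 0.48, adjusted p = 0.0135). It did not pass in PANC1 (1.40, SE 0.74, adjusted p = 0.244). The KP4 libraries with OVOL2 and M2rtTA were uneven, at 2.18, 2.31 and 10.5 CPM. Which stretch of a transcript the counts cover is not given in the sources used here, so the OVOL2 count does not check the labels. ZEB1 fell by 2.64 (SE 0.24) without and by 1.95 (SE 0.22) with M2rtTA.

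**Figure D1:**
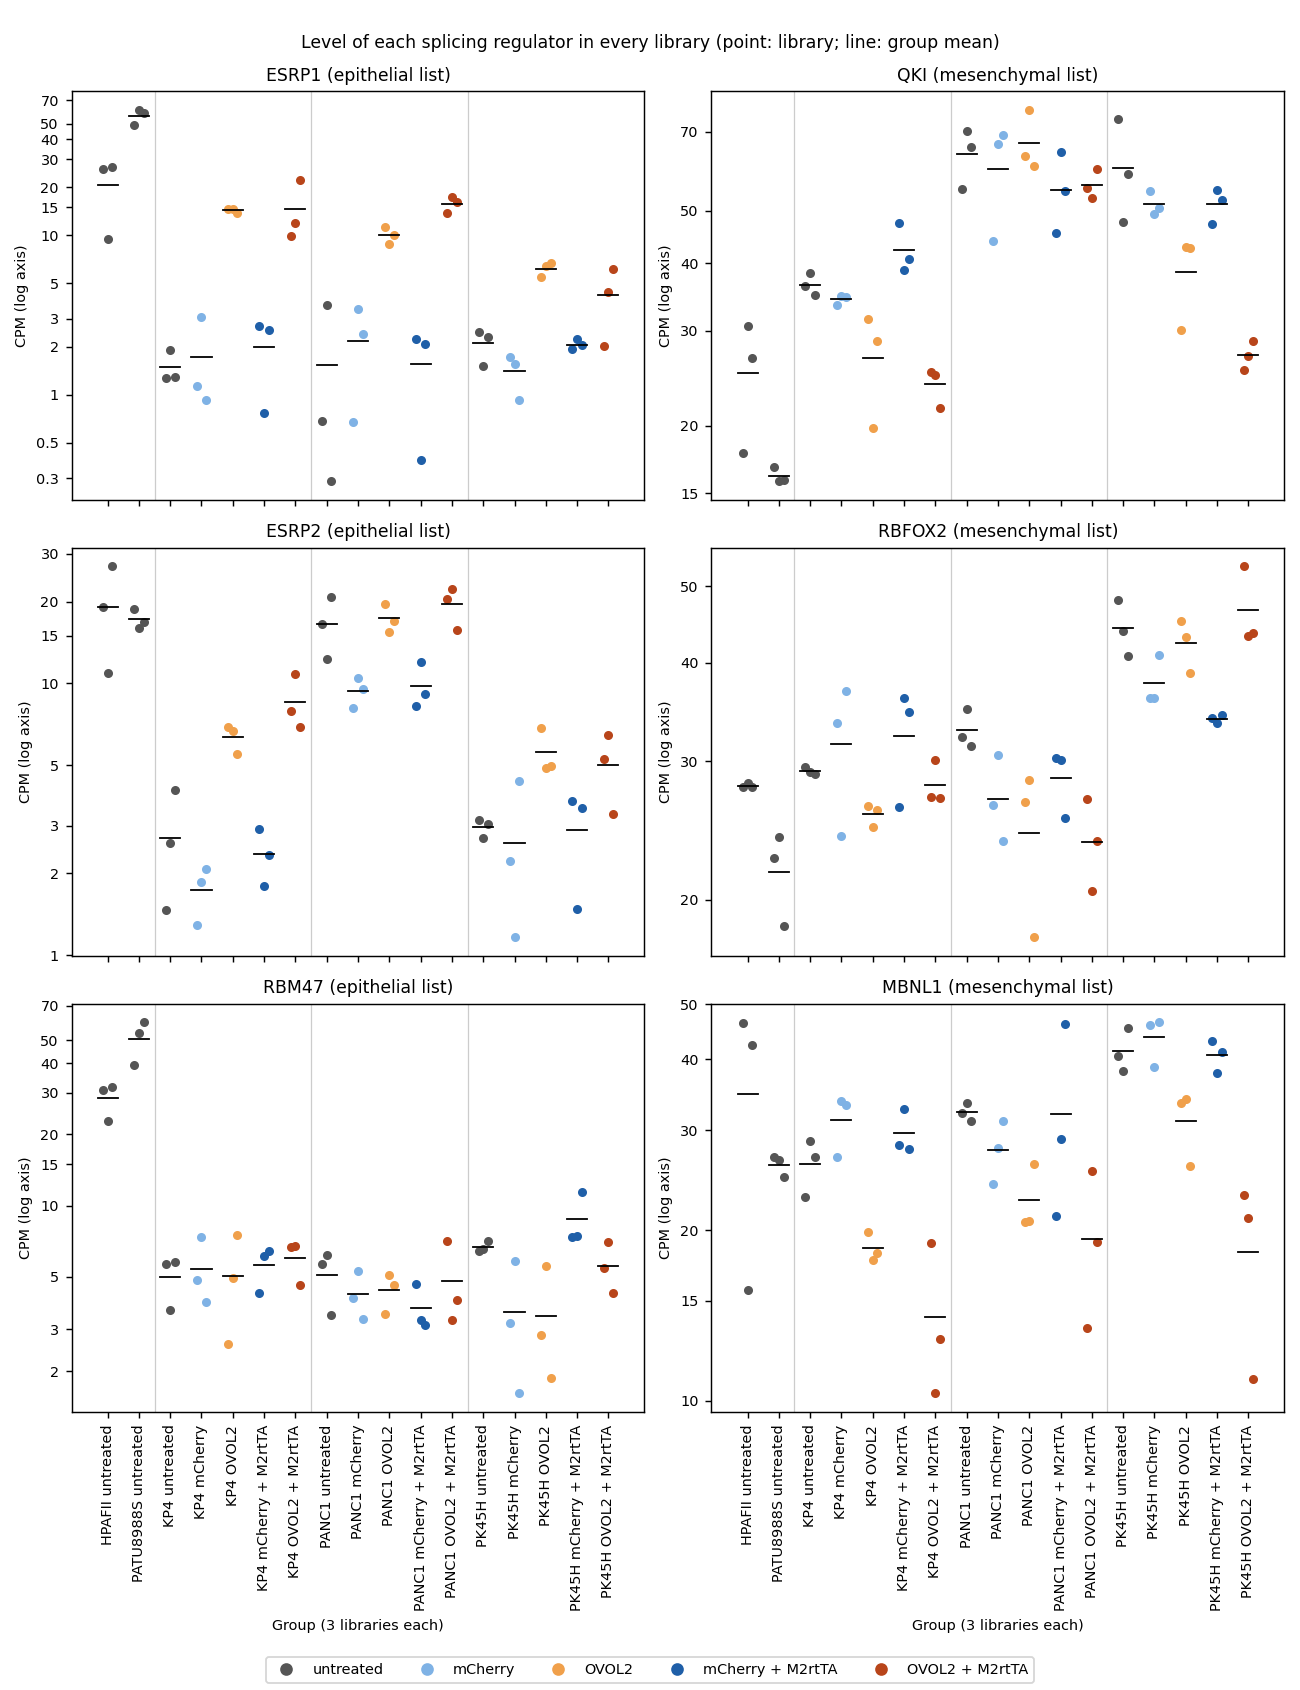
CPM on a log axis for the 6 genes in each of 51 libraries (points) with the group mean (line), for the 17 groups on the x axis. ESRP1 is between 5.44 and 22.1 CPM in the OVOL2 libraries except 2.03 and 4.41 in PK45H with M2rtTA, and RBM47 stays between 1.61 and 11.5 CPM in all libraries of KP4, PANC1 and PK45H.

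In untreated cells, HPAFII and PATU8988S expressed all 3 epithelial regulators more highly, and QKI and RBFOX2 less, than the mean of KP4, PANC1 and PK45H. These 5 calls stood beside 34.8% of all 13785 genes tested that differed in this contrast. ESRP1 was higher by 4.33 (SE 0.30), a 20.1-fold difference, RBM47 by 2.79 (SE 0.16) and ESRP2 by 1.86 (SE 0.21) on the log2 scale. QKI was lower by 2.57-fold (log2 fold change -1.36, SE 0.14) and RBFOX2 by 1.40-fold (-0.49, SE 0.10, adjusted p = 0.00142). The means did not speak for every pair of lines. HPAFII against KP4, where 29.9% of genes were called, differed by -0.01 for RBFOX2 (95% interval -0.34 to 0.31) and by -0.51 for QKI (SE 0.21, adjusted p = 0.0855), and HPAFII against PANC1 differed by -0.22 for RBFOX2 (SE 0.15, adjusted p = 0.304). PATU8988S against KP4 did not pass for RBFOX2 either (21.7 ± 2.84 against 29.1 ± 0.297 CPM, SD, n = 3). For RBFOX2 in the comparison of means the adjusted p was 0.0677 once libraries were thinned to 1 depth. MBNL1 did not separate the lines: its log2 difference was -0.09 (95% interval -0.45 to 0.28, adjusted p = 0.721) and turned to 0.06 without HPAFII replicate 2. In these lines the mesenchymal label of MBNL1 was thus not borne out by its untreated levels.

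ESRP1, the main epithelial splicing factor, rose in all 3 lines with the OVOL2 virus alone. In KP4 the mCherry libraries read 1.13, 3.09 and 0.922 CPM and the OVOL2 libraries 14.7, 14.5 and 13.8. In PANC1 the values were 0.676, 3.45 and 2.39 CPM with mCherry against 11.3, 8.77 and 10.1 with OVOL2. In PK45H they were 1.72, 1.55 and 0.920 CPM against 5.44, 6.40 and 6.65. No OVOL2 library overlapped its mCherry group in any of the 3 lines, although the mCherry values rested on only 3 to 26 counts each.

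With M2rtTA, ESRP1 reached 9.91, 12.0 and 22.1 CPM in KP4 and 13.7, 17.4 and 16.2 CPM in PANC1. The matching mCherry libraries were at 0.388 to 2.69 CPM, again without overlap. PK45H read 2.03, 4.41 and 6.16 CPM under OVOL2 against 1.92, 2.22 and 2.03 under mCherry, so that the groups overlapped.

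Over the 3 lines ESRP1 rose by 2.46 (SE 0.30) on the log2 scale without M2rtTA, a 5.49-fold change (adjusted p = 1.1e-07), and by 2.40 (SE 0.29) with it (adjusted p = 4.58e-08). Of the 6 genes, 3 were called without M2rtTA, where 18.1% of all 14943 genes tested were, and 4 with M2rtTA, where 32.9% were. Without M2rtTA the ESRP1 rise in KP4 was 3.06 (SE 0.45), or 3.77 when mCherry replicate 2 was left out. It was 2.13 (SE 0.56) for PANC1 and 2.12 (SE 0.42) for PK45H. With M2rtTA it was 2.81 (SE 0.44) in KP4 and 3.38 (SE 0.60) in PANC1. The value in PK45H was 1.02 (SE 0.38, adjusted p = 0.0894), or 1.36 (adjusted p = 0.0186) without OVOL2 + M2rtTA replicate 1, its lowest library. The PANC1 call without M2rtTA (adjusted p = 0.0431) was lost on leaving out any 1 of its 6 libraries, with adjusted p between 0.0553 and 0.122.

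ESRP2, the paralog of ESRP1, also rose, but from starting levels that differed between lines. Untreated PANC1 read 16.5, 12.3 and 20.7 CPM, in the range of HPAFII (19.1, 11.0 and 27.0 CPM) and PATU8988S (18.8, 16.0 and 16.8 CPM). The difference of HPAFII from PANC1 was 0.27 (95% interval -0.40 to 0.93, adjusted p = 0.56) and that of PATU8988S was 0.04 (95% interval -0.61 to 0.69, adjusted p = 0.943). Untreated KP4 and PK45H were lower, at 2.70 ± 1.30 and 2.96 ± 0.230 CPM (SD, n = 3). ESRP1 in untreated PANC1, by contrast, was at 1.54 ± 1.84 CPM (SD, n = 3), on only 1 to 16 counts a library. HPAFII was 13.3-fold above it, a value that such low counts leave imprecise. Of all genes tested, 28.7% differed between HPAFII and PANC1 and 29.3% between PATU8988S and PANC1.

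Under OVOL2 without M2rtTA, ESRP2 read 6.88, 6.67 and 5.49 CPM in KP4 against 1.29, 1.85 and 2.07 with mCherry. In PANC1 it was 19.6, 15.5 and 16.9 CPM against 8.12, 10.5 and 9.57. The OVOL2 libraries lay above the mCherry libraries in both lines, and in PK45H too (4.89 to 6.86 CPM against 1.17 to 4.37). Over the lines ESRP2 rose by 1.27 (SE 0.19), or 2.41-fold (adjusted p = 5.74e-06), without M2rtTA and by 1.22 (SE 0.18, adjusted p = 2.29e-06) with it.

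The ESRP2 rise passed the test in KP4, at 1.88 (SE 0.36) without and 1.86 (SE 0.34) with M2rtTA, and in PANC1, at 0.89 (SE 0.22) and 1.02 (SE 0.22). In PK45H it was 1.01 (SE 0.43, adjusted p = 0.172) and 0.78 (SE 0.40, adjusted p = 0.219). The first of these was 1.60 without mCherry replicate 3, and the second 0.48 without mCherry + M2rtTA replicate 2, and neither passed. The PANC1 call without M2rtTA (adjusted p = 0.0328) was lost without any 1 of its 6 libraries (adjusted p 0.0522 to 0.110). PANC1 with OVOL2 stood at 17.3 ± 2.11 CPM (SD, n = 3), against 16.5 ± 4.20 untreated and 9.39 ± 1.20 with mCherry. The step from untreated to mCherry was -0.78 (SE 0.22, unadjusted p = 0.00327, adjusted p = 0.174), and OVOL2 was not tested against untreated cells.

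RBM47 separated the epithelial lines from the others, and no change with OVOL2 passed the test. Untreated PATU8988S read 39.3, 53.5 and 59.5 CPM and HPAFII 30.8, 22.7 and 31.8, all above the 1.61 to 11.5 CPM of every KP4, PANC1 and PK45H library. The OVOL2 difference over the lines was 0.02 without M2rtTA (SE 0.23, 95% interval -0.44 to 0.48, adjusted p = 0.976) and -0.05 with it (SE 0.22, 95% interval -0.50 to 0.39, adjusted p = 0.886). Both intervals lie below the 2.79 that separated the untreated lines. The mCherry and OVOL2 libraries overlapped in all 3 lines without M2rtTA, for example 4.84, 7.41 and 3.92 CPM against 2.60, 4.95 and 7.53 in KP4. In PK45H with M2rtTA the OVOL2 libraries (4.27 to 7.0 CPM) lay below the mCherry libraries (7.39 to 11.5 CPM), but the difference of -0.65 (SE 0.39) had an adjusted p of 0.298.

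The RefSeq table of promoter windows (GRCh38.p14, 250 bases before to 50 after an annotated start) held 4 windows for RBM47 on chromosome 4 and 3 for MBNL1 on chromosome 3. Windows of both were searched on both strands for CACCTG, the E-box bound by ZEB factors, and for CCGTTA, the OVOL core, which do not overlap each other. CACCTG was in 20.6% and CCGTTA in 3.07% of all 35116 windows in the table. Of the 4 RBM47 windows, 1 held CACCTG and none CCGTTA, and none of the 3 MBNL1 windows held either. The RBM47 window with the match is shown because it was the only window of these 2 genes that held either motif. It lies at chr4:40514532-40514831 on the minus strand, inside the span of the gene (chr4:40423280-40630852), and capitals mark CACCTG, 208 to 203 bases before the start.
RBM47: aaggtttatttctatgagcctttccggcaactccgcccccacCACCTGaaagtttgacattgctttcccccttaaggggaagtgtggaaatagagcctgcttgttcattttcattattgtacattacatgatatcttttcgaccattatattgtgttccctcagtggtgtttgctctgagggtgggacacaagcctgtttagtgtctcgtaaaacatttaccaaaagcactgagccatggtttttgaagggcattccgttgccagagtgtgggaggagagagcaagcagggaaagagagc
A match is a description of these letters and not evidence of binding. The other 4 genes had no window in that table, and of these QKI spans chr6:163414718-163578592, ESRP2 chr16:68229033-68236127 and RBFOX2 chr22:35738736-36028824 on the same build.

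QKI, whose protein promotes mesenchymal exons, fell with OVOL2 and M2rtTA in KP4 and PK45H, and no change passed in PANC1. With M2rtTA, KP4 read 47.4, 38.9 and 40.6 CPM under mCherry and 25.2, 24.8 and 21.6 under OVOL2. PK45H read 47.3, 54.7 and 52.5 CPM against 25.3, 27.0 and 28.7. PANC1 read 45.4, 64.2 and 54.3 CPM against 55.2, 52.7 and 59.7. The OVOL2 libraries lay below every mCherry library in KP4 and PK45H and inside the mCherry range in PANC1.

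With M2rtTA the QKI change in KP4 was -0.82 (SE 0.16, adjusted p = 0.00222). The PK45H change was -0.93 (SE 0.18, adjusted p = 0.00284) in PK45H. In PANC1 it was 0.06 (SE 0.19, 95% interval -0.34 to 0.47, adjusted p = 0.865). Without M2rtTA no line passed, with QKI at -0.35 (SE 0.16) for KP4, 0.17 (SE 0.19) for PANC1 and -0.45 (SE 0.17) for PK45H. The KP4 value was -0.19 without OVOL2 replicate 2. Over the lines QKI was at -0.19 (SE 0.10, adjusted p = 0.189) without M2rtTA and fell by 0.56 (SE 0.10, adjusted p = 2.69e-05) with it.

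RBFOX2 was nearly level under OVOL2, at -0.08 (SE 0.09, adjusted p = 0.602) over the lines without M2rtTA and 0.01 (SE 0.09, 95% interval -0.17 to 0.18, adjusted p = 0.97) with it. PK45H with M2rtTA went against its mesenchymal label: 34.0, 33.6 and 34.3 CPM under mCherry and 53.1, 43.3 and 43.6 under OVOL2, without overlap. That rise of 0.46 (SE 0.13) had an adjusted p of 0.0228, which became 0.0672 to 0.0927 without any of the 3 mCherry + M2rtTA libraries or without OVOL2 + M2rtTA replicate 1. Untreated PK45H was at 44.2 ± 3.64 CPM (SD, n = 3), close to the OVOL2 value. KP4 and PANC1 were at -0.20 (SE 0.16) and -0.24 (SE 0.18) with M2rtTA, and their groups overlapped.

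MBNL1 fell over the lines both without and with M2rtTA. In KP4 with M2rtTA it read 28.3, 32.7 and 27.8 CPM under mCherry and 19.0, 10.3 and 12.8 under OVOL2. In PK45H it read 43.0, 37.8 and 41.1 CPM against 23.1, 21.0 and 10.9. PANC1 overlapped, with 21.2, 28.9 and 46.2 CPM against 13.4, 25.4 and 19.1.

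Over the lines MBNL1 fell by 0.50 (SE 0.14, adjusted p = 0.0085) without M2rtTA and by 0.96 (SE 0.14), or 1.95-fold, with it (adjusted p = 9.06e-07). By line with M2rtTA the change was -1.07 (SE 0.20) in KP4, -1.14 (SE 0.22) in PK45H and -0.68 (SE 0.26, adjusted p = 0.10) in PANC1. The PANC1 value was -0.89 (adjusted p = 0.0434) without mCherry + M2rtTA replicate 1. Without M2rtTA, MBNL1 passed in KP4 alone of the lines (-0.75, SE 0.20, adjusted p = 0.0357). That call was lost on leaving out any of the 6 KP4 libraries compared except mCherry replicate 1 (adjusted p 0.0761 to 0.114). The values in PANC1 and PK45H were -0.28 (SE 0.26) and -0.52 (SE 0.21).

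By line, 3 of the 6 genes were called in KP4 without M2rtTA (6.82% of genes tested) and 4 with it (22.4%). In PANC1 there were 2 called without M2rtTA (5.08%) and 2 with it (13.9%), ESRP1 and ESRP2 each time. In PK45H there was 1 called without M2rtTA, ESRP1 (8.39%), and 3 with it, QKI, RBFOX2 and MBNL1 (15.9%).

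The summed marker levels moved with OVOL2 as well. Without M2rtTA the epithelial sum went from 781 to 833 CPM with mCherry to 1087 to 1235 CPM with OVOL2 in KP4. In PK45H it went from 2695 to 3102 CPM to 4726 to 5095 CPM, while the PANC1 ranges overlapped (2258 to 2683 and 2452 to 2728 CPM). The mesenchymal sum, which was mostly VIM, was lower with OVOL2 in all 3 lines. In KP4, for example, it was 404 to 410 CPM against 1749 to 2004 CPM. With M2rtTA the epithelial sum was 997 to 1105 CPM under OVOL2 against 637 to 646 under mCherry in KP4, and 5225 to 5499 against 1964 to 2115 in PK45H. In PANC1 with M2rtTA it was 2114 to 2432 CPM under OVOL2 against 2277 to 2612, so the ranges overlapped. Over all libraries KRT18 held 248337, KRT7 200257 and KRT8 122187 epithelial counts, against at most 40236 for any other listed gene. The sum therefore does not show how each marker moved. CDH1 and EPCAM, listed genes with profiles like that of ESRP1, were higher under OVOL2 in PANC1 with M2rtTA. CDH1, for example, went from 5.52 ± 1.93 to 27.1 ± 13.2 CPM (SD, n = 3). The other epithelial markers are not given by line here. The acinar and islet sum in PK45H was 5.67 to 7.75 CPM with OVOL2 against 0 to 1.55 with mCherry, and 5.69 to 8.30 against 0.148 to 0.581 with M2rtTA. With M2rtTA, leukocyte sums lay above mCherry without overlap in KP4 (4.70 to 7.70 against 3.50 to 3.84 CPM). The same held in PK45H (7.29 to 12.6 against 3.34 to 5.56 CPM). These low sums rest on few genes. Over all libraries PRSS1 held 231 acinar and islet counts, against at most 46 for any other listed gene. LYZ held 744 and CD68 347 leukocyte counts, against at most 204 for any other. The part of the marker shifts in the values of the 6 genes was not tested. In bulk RNA fewer cells of a kind and less RNA per cell cannot be told apart.

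**Figure D2:**
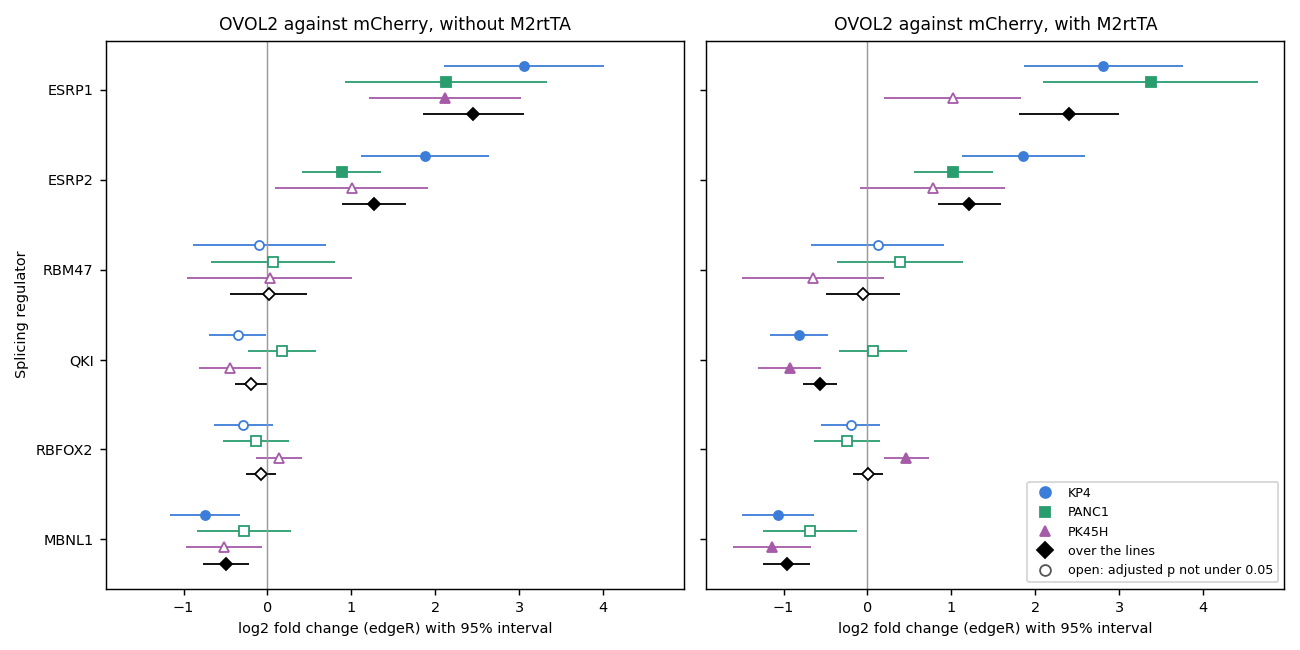
Log2 fold change of OVOL2 against mCherry with its 95% interval for the 6 genes, in each line and over the lines, without M2rtTA (left) and with it (right). Filled symbols have an adjusted p under 0.05. The points of ESRP1 and ESRP2 lie right of 0 in every line, the intervals of RBM47 cross 0, and the points of MBNL1 lie left of 0.

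Whether the OVOL2 effect differed between the 3 lines was tested with 2 degrees of freedom. Without M2rtTA none of the 6 genes was called in edgeR, where 2.74% of genes were, and 1, QKI, had an unadjusted p under 0.05 (0.0327). With M2rtTA, QKI (adjusted p = 0.00951) and RBFOX2 (adjusted p = 0.0443) were called, beside 7.56% of genes. The QKI effect in KP4 minus that in PANC1 was -0.90 (SE 0.24, adjusted p = 0.0278), where 3.91% of genes were called. PANC1 minus PK45H was 1.01 (SE 0.24, adjusted p = 0.0109), where 4.08% were. KP4 minus PK45H did not pass for QKI (0.10, 95% interval -0.39 to 0.60), where 3.17% did. No pair of lines passed for RBFOX2 (adjusted p 0.0581 for PANC1 minus PK45H and 0.0767 for KP4 minus PK45H). The RBFOX2 call was lost in 15 of 18 fits that each left out 1 library, with adjusted p up to 0.153, and kept only without KP4 mCherry + M2rtTA replicate 1, PANC1 mCherry + M2rtTA replicate 3 or PANC1 OVOL2 + M2rtTA replicate 1. The difference in ESRP1 between lines with M2rtTA had an adjusted p of 0.0738.

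The size of the OVOL2 effect with M2rtTA minus that without it was tested over the lines, a contrast in which 7.72% of genes were called. None of the 6 was called in edgeR, and 2 had an unadjusted p under 0.05. QKI was at -0.37 (SE 0.14, unadjusted p = 0.012, adjusted p = 0.102) and MBNL1 at -0.47 (SE 0.19, unadjusted p = 0.0205, adjusted p = 0.138). QKI passed with M2rtTA and not without it, and its own row here does not show that the effects differ. The 95% interval was -0.90 to 0.79 for ESRP1 and -0.58 to 0.47 for ESRP2.

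The viral controls moved none of the 6 genes past the threshold in edgeR. For mCherry against untreated, the share of all genes called was 0% for KP4, 0.598% for PANC1 and 0.00736% for PK45H. ESRP2 in PANC1 (given above) and RBM47 in PK45H (-0.97, SE 0.44, unadjusted p = 0.042, adjusted p = 0.608) were below 0.05 unadjusted in edgeR. For mCherry + M2rtTA against mCherry the share was 0% for KP4 and PANC1 and 0.0294% for PK45H. There RBM47 in PK45H differed by 1.38 (SE 0.43, unadjusted p = 0.00635, adjusted p = 0.344), from 3.20, 5.83 and 1.61 CPM to 7.39, 7.41 and 11.5 CPM. Untreated PK45H, at 6.44, 6.58 and 7.09 CPM, lay between those groups in its mean.

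The OVOL2 libraries were next set against untreated HPAFII and PATU8988S in 1 fit of all 51 libraries. Without M2rtTA 5 of the 6 genes were called, where 37.2% of genes were, and with it all 6, where 39.7% were. ESRP1 remained lower by 1.85 (SE 0.26) without and 1.82 (SE 0.26) with M2rtTA on the log2 scale, while the mCherry libraries were lower by 4.29 (SE 0.30) and 4.20 (SE 0.29). ESRP2 remained lower by 1.12 (SE 0.19) and 0.96 (SE 0.19), from 2.37 and 2.16 for mCherry. RBM47 was lower by 3.15 (SE 0.22) and 2.81 (SE 0.21), against 3.16 and 2.75 for mCherry. These comparisons share the 6 HPAFII and PATU8988S libraries.

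QKI stayed above the epithelial lines, by 1.04 (SE 0.12) without and 0.73 (SE 0.12) with M2rtTA, where mCherry libraries were above by 1.24 and 1.30. RBFOX2 was above by 0.27 (SE 0.10, adjusted p = 0.0286) and 0.35 (SE 0.10), and the first of these was lost without HPAFII replicate 3, PATU8988S replicate 3 or PANC1 OVOL2 replicate 2 (adjusted p 0.0512 to 0.085). MBNL1 went below the epithelial lines, to -0.83 (SE 0.17, adjusted p = 0.00011) with M2rtTA. Without M2rtTA it was at -0.37 (SE 0.17, adjusted p = 0.0805), or -0.52 (adjusted p = 0.00735) without HPAFII replicate 2. Of the mCherry comparisons, 36.8% of genes were called without and 37.1% with M2rtTA.

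**Figure D3:**
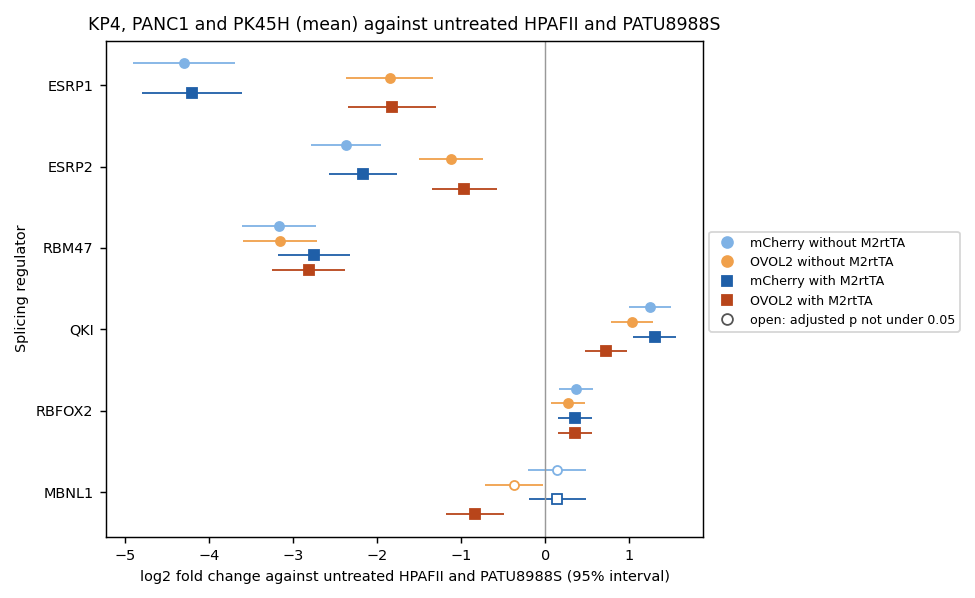
Log2 fold change, with its 95% interval, of the mCherry and OVOL2 libraries (mean of KP4, PANC1 and PK45H) against untreated HPAFII and PATU8988S, where 0 is the level of those 2 lines. ESRP1 moves from -4.29 to -1.85 without M2rtTA, RBM47 stays near -3, and MBNL1 moves below 0.

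An index was formed as the mean log2 CPM of the 3 epithelial genes minus that of the 3 mesenchymal genes, as a description with no test. It was 0.79 ± 0.19 (SD, n = 3) in PATU8988S, -0.39 ± 0.38 in HPAFII and between -3.62 and -3.02 in untreated KP4, PANC1 and PK45H. Without M2rtTA the KP4 mean was -3.51 with mCherry and -1.57 with OVOL2. The PANC1 means were -2.93 and -1.80, and the PK45H means -4.10 and -2.85. With M2rtTA the pairs of means were -3.39 and -1.20 for KP4, -3.14 and -1.34 for PANC1, and -3.35 and -2.48 for PK45H. In each of these 6 pairs the 3 OVOL2 libraries lay above the 3 mCherry libraries. Averaged over the lines, the shift was 40.9% without and 46.0% with M2rtTA of the 3.52 that separated the untreated epithelial lines from the others, and it was least in PK45H with M2rtTA (24.7%). The shift and the gap rested partly on different genes. RBM47 added to the gap but had no called change with OVOL2. MBNL1 did not separate the untreated lines, yet its fall raised the index, even where it went below the epithelial lines. These shares therefore do not measure how much of each gene's gap was closed.

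**Figure D4:**
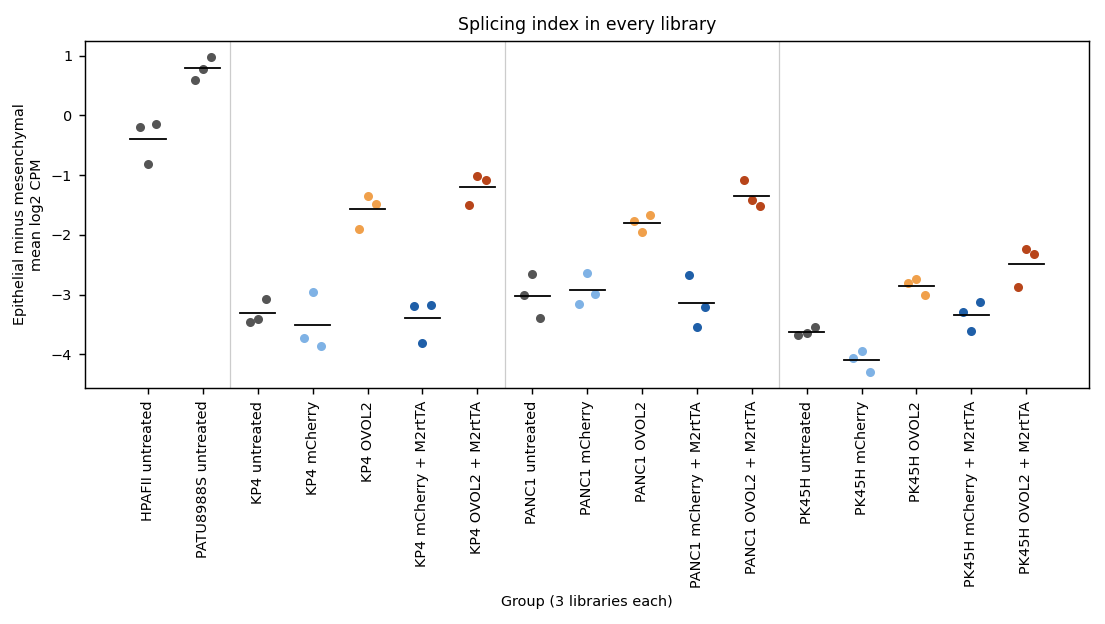
Index of epithelial minus mesenchymal mean log2 CPM (6 genes) in each library (points) with the group mean (line) for the 17 groups. OVOL2 groups lie between -2.85 and -1.20, above their mCherry groups (-4.10 to -2.93) and below HPAFII (-0.39) and PATU8988S (0.79).

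Across the 17 group means the members did not form 2 tight blocks. Pearson's r of ESRP1 was 0.62 with ESRP2 and 0.62 with RBM47, and the latter became -0.04 over the 15 groups of KP4, PANC1 and PK45H. ESRP1 and MBNL1 were at -0.54 over 17 groups and -0.76 over 15. QKI and MBNL1 were at 0.43 and 0.59, and QKI and RBFOX2 at 0.18 and -0.13. Groups of 1 line share their cells, so these values describe the table only.

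Among 10278 genes averaging at least 5 CPM, the profile most like ESRP1 over the 17 groups was that of LSR (r = 0.96), a tricellular junction receptor, followed by EPCAM (0.94), an epithelial adhesion molecule, and CDH1 (0.92), E-cadherin. For ESRP2 the leading genes were SLC15A4 (0.94), a histidine and peptide transporter, LLGL2 (0.93), a polarity protein, and CDS1 (0.93), a lipid enzyme. RBM47 was most like RAB25 (0.96), an epithelial vesicle GTPase, KLK11 (0.95) and GALC (0.95), but without HPAFII and PATU8988S these were 0.56, 0.40 and 0.50. QKI was most like LOC105372482 (0.93), RDX (0.91), which encodes radixin, and MPP1 (0.90). RBFOX2 had SNX18 (0.90), POLR3GL (0.89) and GCAT (0.89), and MBNL1 had XRN2 (0.97), a nuclear exonuclease, SNX7 (0.96) and CDC7 (0.94), a replication kinase. EPCAM, for instance, went from 40.6 ± 2.52 to 231 ± 3.50 CPM (SD, n = 3) in PANC1 under OVOL2 without M2rtTA.

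Paralogs of the members were read next. Of 7 tested from a list of 9, 0 were called without M2rtTA in edgeR and 1 fell with it, KHDRBS1 (-0.52, SE 0.14, adjusted p = 0.00427), a relative of QKI, beside 18.1% and 32.9% of all genes called. The medians were 0.02 and -0.17, beside 0.00 and 0.03 over all genes. MBNL2 was at -0.13 (SE 0.07), KHDRBS3 at -0.24 (SE 0.18) and RBFOX1 at -0.26 (SE 0.34) with M2rtTA, none past the threshold. In the untreated comparison MBNL3, a paralog of MBNL1, was 3.27 higher in HPAFII and PATU8988S on the log2 scale (adjusted p = 1.11e-06) and A1CF, a relative of RBM47, 1.97 higher. KHDRBS1 was at -0.86 and KHDRBS3 at -1.55 in that contrast. MBNL3 and A1CF are named because they were called, after their values were seen.

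A list of 51 other splicing regulators, SR proteins and hnRNPs among them, leaned to lower counts. Without M2rtTA 10 fell and 1 rose (PTBP3, 0.32, named after its value was seen), and with M2rtTA 19 fell and 2 rose (RBM5, 0.31, and SRSF5, 0.32, named likewise). Of all genes, 8.81% fell and 9.32% rose without M2rtTA, and 17.3% fell and 15.7% rose with it. The list's medians were -0.22 and -0.31. With M2rtTA HNRNPA2B1 fell by 0.89 (SE 0.07), SRSF10 by 0.91 (SE 0.10), SRSF7 by 0.73 (SE 0.07) and HNRNPA1 by 0.44 (SE 0.05), and without it by 0.38, 0.71, 0.28 and 0.23. In the untreated comparison 5 of the 51 were lower and 3 higher in HPAFII and PATU8988S, beside 17.4% of all genes in each direction.

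Transcripts that ESRP1 or ESRP2 are known to splice were read as gene totals, since counts per symbol do not tell isoforms apart. Of 20, 4 fell and 2 rose without M2rtTA, and 6 fell and 4 rose with it, with medians of 0.04 and -0.24. Those shares stand beside 8.81% of all genes that fell and 9.32% that rose without M2rtTA, and 17.3% and 15.7% with it. CD44, a hyaluronan receptor with variable exons, fell by 0.53 (SE 0.07) and 0.84 (SE 0.07), and CTNND1, which encodes p120-catenin, rose by 0.30 (SE 0.07) and 0.37 (SE 0.07). SCRIB, a polarity scaffold, fell by 0.46 (SE 0.15) and 0.85 (SE 0.16). In the untreated comparison 7 of the 20 were higher and 4 lower in HPAFII and PATU8988S, beside 17.4% of all genes in each direction. CD44 was 1.31 lower (-1.31, SE 0.12) and CTNND1 1.08 higher in HPAFII and PATU8988S.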

How the data were processed

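The values deposited by the authors were counts: whole numbers per gene symbol and library, not normalised. Per the submitters' processing notes, kallisto 0.44.0 and the GRCh38 build were used. How its estimates became whole counts, and whether molecular identifiers were used, is not given in the sources used here, so p-values and intervals cover the spread between libraries and counting error only. All columns of values were matched to a sample by the labels. Of the 25421 symbols, 24193 are current in the reference gene table.

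Counts were analysed with edgeR 4.0.16 in R 4.3.3: genes were kept by filterByExpr with the groups given, libraries were scaled by TMM, and contrasts between group means were tested two-sided by quasi-likelihood, with Benjamini-Hochberg adjustment over all genes tested and a threshold of 0.05. Effects over lines came from 45 libraries, effects within a line from its 15, the untreated comparison from 15, and comparisons of transduced with untreated HPAFII and PATU8988S libraries from all 51. SE is derived from the test statistic. Levels are CPM with TMM factors from the fit of 51 libraries, and log2 CPM has a prior count of 2.

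The members and lists were chosen with earlier results of these data known. Named genes were the 6 members, OVOL2 and ZEB1, from each list 4 genes ranked by p over the lines with M2rtTA, and the 3 profiles most like each member. Of these, 1 list gene is not reported here. Results were recomputed with DESeq2 1.42.0, with RLE scaling, unfiltered or with a mean count filter of 10, and with other sets of libraries. Robust dispersion, thinning to the smallest total, a replicate block and leaving out each library of the groups compared were also used. Not every setting was run for every contrast. Leaving out libraries for the index and the contrasts between pairs of lines were added after seeing the data. The script was tested on simulated counts with known changes.

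Replicate numbers did not pair OVOL2 with mCherry libraries. Deviations from the group mean were correlated over 18 same-numbered pairs of these libraries, each within a line. The correlations ran from -0.13 to 0.12, with 1 over 0.1.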

Additional observations from a re-analysis of the deposited data

Results flagged for a closer look

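For 2 of the 6 genes the OVOL2 effect with M2rtTA was called different between KP4, PANC1 and PK45H by the test of the difference itself. Of all 14943 genes tested, 7.56% were called in that test. QKI had an adjusted p of 0.00951 (edgeR, 2 degrees of freedom): it fell by 0.82 in KP4 and by 0.93 in PK45H on the log2 scale and was at 0.06 in PANC1. RBFOX2 had an adjusted p of 0.0443, with 0.46 in PK45H, -0.20 in KP4 and -0.24 in PANC1, and no pair of lines passed for it. The RBFOX2 call was lost in 15 of 18 fits that each left out 1 library (adjusted p up to 0.153) and in 5 of 8 other settings (up to 0.383). QKI passed in those 18 fits and 8 settings, with adjusted p up to 0.049 and 0.022.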

How the results depend on the processing

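Of 768 member values under other settings, 738 kept their direction and their side of the threshold, 22 changed their call and 8 changed sign, none of those 8 where the value was called. RLE scaling, DESeq2 and the mean count filter changed no call where they were run. DESeq2 was run only for the OVOL2 effects over the lines and by line and for the untreated comparison. The mean count filter was not run for the viral controls or for OVOL2 libraries against HPAFII and PATU8988S. A prior count of 0.5 was used only for the index, which has no call to change. The cause of the changes was not tested. Every edgeR call over the lines held under each setting run. Without a filter, the line difference of RBFOX2 with M2rtTA had F = 5.69, MBNL1 in KP4 without M2rtTA was -0.72, ESRP2 in PANC1 without M2rtTA 0.88 and RBFOX2 in PK45H with M2rtTA 0.42, all losing their call, RBFOX2 over the lines with M2rtTA was -0.0046, and QKI for mCherry + M2rtTA against mCherry in PK45H was 0.026. With robust dispersion F of RBFOX2 was 6.34. With the replicate block, F of RBFOX2 was 6.69, MBNL1 in KP4 -0.75, ESRP1 in PANC1 2.20 and ESRP2 in PANC1 0.89, losing their calls, and RBM47 in PK45H without M2rtTA was -0.020. The numbers do not pair the libraries, and 4 of 18 correlated best with their own number. Thinned to the smallest total, calls were lost for RBFOX2 (F = 2.29, 0.48 in PK45H, -0.37 in the untreated comparison), ESRP1 (2.09) and ESRP2 (0.83) in PANC1, and gained for MBNL1 in the M2rtTA difference (-0.62), ESRP1 in the line difference (F = 7.17) and ESRP2 in PK45H without M2rtTA (1.54). RBM47 was then -0.023 over the lines without M2rtTA, 0.061 in KP4 and -0.018 in PK45H, and the M2rtTA difference of ESRP1 was 0.054. With only the groups compared, ESRP2 in PANC1 was 0.90, F of RBFOX2 6.73 and RBFOX2 in PK45H 0.48. That setting equals the fit used for the untreated comparison, so it gave no second value there. With all 51 libraries in 1 fit, RBFOX2 over the lines with M2rtTA was -0.0059, MBNL1 in KP4 -0.75 and ESRP2 in PANC1 0.87.

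With 1 library left out at a time, 1231 of 1350 values kept direction and side, 42 changed call and 77 changed sign, none of those 77 where called. Ranges of the M2rtTA difference were -0.29 to 0.072 for ESRP1, -0.26 to 0.032 for ESRP2 and -0.24 to 0.13 for RBM47. Over the lines RBM47 ran from -0.18 to 0.18 without and -0.18 to 0.030 with M2rtTA, and RBFOX2 from -0.053 to 0.037 with M2rtTA. F of RBFOX2 ran from 4.32 to 8.88. In KP4, MBNL1 ran from -0.86 to -0.68 and RBM47 from -0.53 to 0.23 without M2rtTA, and RBM47 from -0.025 to 0.26 with it. In PANC1 without M2rtTA, ESRP1 ran from 1.79 to 2.65, ESRP2 from 0.79 to 0.98, RBFOX2 from -0.25 to 0.062 and RBM47 from -0.071 to 0.28. With M2rtTA, MBNL1 ran from -0.93 to -0.32 and QKI from -0.035 to 0.20 there. In PK45H, RBM47 ran from -0.54 to 0.53 without M2rtTA, and ESRP1 from 0.63 to 1.36 and RBFOX2 from 0.36 to 0.52 with it. MBNL1 ran from -0.21 to 0.061 in the untreated comparison, and for OVOL2 without M2rtTA against HPAFII and PATU8988S MBNL1 ran from -0.52 to -0.25 and RBFOX2 from 0.23 to 0.34. For mCherry against untreated, KP4 gave -0.52 to 0.47 for ESRP1, -0.019 to 0.28 for RBFOX2 and -0.18 to 0.28 for RBM47, PANC1 -0.0014 to 2.16 for ESRP1 and -0.18 to 0.10 for QKI, and PK45H -0.70 to 0.16 for ESRP2. For mCherry + M2rtTA against mCherry, KP4 gave -0.0083 to 0.98 for ESRP1, -0.11 to 0.19 for RBFOX2 and -0.10 to 0.37 for RBM47, PANC1 -0.13 to 0.16 for ESRP2, -0.14 to 0.43 for MBNL1, -0.0072 to 0.19 for RBFOX2 and -0.41 to 0.00089 for RBM47, and PK45H -0.16 to 0.70 for ESRP2 and -0.067 to 0.048 for QKI.

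ESRP1 in mCherry libraries rests on 3 to 26 counts a library without M2rtTA and on 2 to 14 with it. In KP4 and PK45H, ESRP2 in mCherry libraries rests on 3 to 19 counts without M2rtTA and on 7 to 25 with it. Such low counts limit the precision of these fold changes.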
